A study of Mus musculus with 36 samples.

Results

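The comparison described here set the cochleae of sham-operated mice at circadian time CT12, the start of the active phase of a nocturnal animal, against those at CT24, the start of its rest. It used 6 of the 36 sequenced libraries, 3 labelled sham at CT12 and 3 labelled sham at CT24, chosen by their labelled status and time alone. All were total RNA of the cochlea, the coiled hearing organ of the inner ear, from CBA/Sca mice aged 12 weeks. The labels name no transgene, and the sham animals kept their adrenal glands, the source of corticosterone. The same times in adrenalectomized (ADX) mice of the same strain and age, with 3 libraries at each, are given beside part of the sham values. The other 4 times (CT04, CT08, CT16 and CT20) are used only to place CT12 and CT24 in the day. The labels do not say that the samples of a group came from separate animals or how many cochleae went into each, and the spread that p-values measure here may be technical. In a bulk tissue, fewer cells of a type and less RNA per cell cannot be told apart.

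Most mammalian tissues carry a circadian clock in which the activators BMAL1 (gene Arntl), CLOCK and NPAS2 bind E-box sequences and switch on their own repressors, the Period and Cryptochrome genes. A second loop of nuclear receptors, in which REV-ERB proteins oppose ROR proteins, sets the timing of Arntl, and a further layer of PAR bZIP factors such as DBP acts on D-box sequences. The adrenal cortex releases corticosterone around the start of activity in nocturnal rodents, and the glucocorticoid receptor then raises a set of target genes in peripheral tissues, Per1 among them. In the cochlea, a clock of this kind is known to run, and hearing damage from noise is known to depend on the time of exposure.

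Counts over the 6 libraries summed to 21711163 to 22682581 at CT12 and to 26340501 to 27686934 at CT24, so the CT12 libraries were the shallower ones and the ranges did not overlap. Mitochondrial genes held 2.26 to 2.64% of counts. Libraries were sequenced in pools of 6, and since the labels do not say which libraries shared a pool, a technical effect that followed time and the effect of time cannot be told apart. Transcripts that define hair cells were present in every library, with Otof at 73.4 to 102 CPM (counts scaled to a common library size) and Myo7a at 42.8 to 50.8 CPM. Markers of bone marrow blood cells and of skeletal muscle were also present. The skeletal muscle score, a mean of centred log2 CPM over 15 markers, was highest at CT24 replicates 1 (1.04) and 2 (0.71) and lowest at CT12 replicate 3 (-1.02). The summed level of these markers overlapped between the times, at 129 to 153 CPM at CT12 and 127 to 147 CPM at CT24. The score of 11 brain and oligodendrocyte markers was higher in all 3 CT12 libraries (0.22, 0.39 and 0.24) than at CT24 (-0.97, -0.48 and -0.22). Fits with the skeletal muscle score and the score of bone marrow blood cells together, or with the brain score, were run as well. They are given below where they ended the call of a gene described with its log2 fold change and standard error.

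At CT12, 928 of 22556 tested genes (4.11%) were higher than at CT24 and 399 (1.77%) were lower, 1327 in all (5.88%), by edgeR's quasi-likelihood test at a Benjamini-Hochberg adjusted p of 0.05, which is what "called" means below. Most of these differences were small. The median absolute log2 fold change of called genes was 0.33, 77.0% changed by less than 1.5-fold, and 52 higher and 81 lower genes passed 2-fold. The groups did not overlap in 1233 of the 1327 called genes, against 23.0% of all genes tested, so the absence of overlap mostly follows from the call. Of all genes tested, 47.5% had a positive log2 fold change. Of the 928 genes called higher, 780 had their highest sham mean of the 6 times at CT12 and 563 their lowest at CT24. Of the 399 called lower, 269 had their lowest mean at CT12 and 209 their highest at CT24. Where these traits are given for called genes below, they are descriptions. The count of called genes depended on single libraries. It was 298 without CT24 replicate 2, 306 without CT12 replicate 1, 557 without CT12 replicate 3 and 690 without CT24 replicate 1, against 1940 without CT24 replicate 3 and 1785 without CT12 replicate 2, and 225 genes passed in each of these 6 fits.

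**Figure D1:**
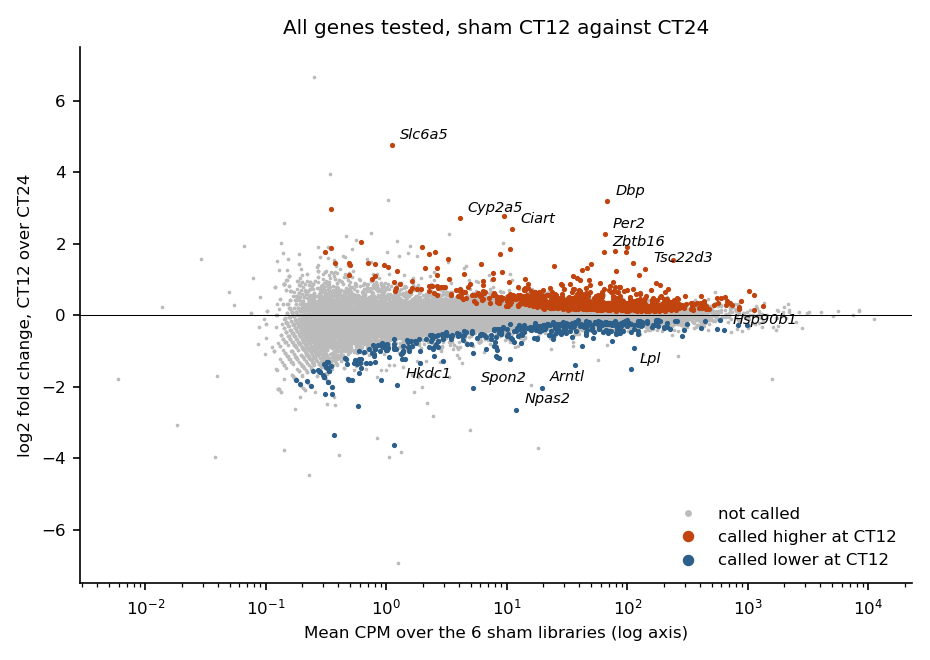
Each point is 1 tested gene with at least 1 count in the 6 sham libraries; the horizontal axis is the mean CPM over the 6 libraries on a log scale and the vertical axis the log2 fold change of CT12 over CT24. Red points were called higher (928 genes) and blue points lower (399 genes) at CT12; Dbp and Per2 stand far above, and Npas2 and Arntl far below, most genes of similar level.

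Most core clock genes differed between CT12 and CT24. Of 20 core clock genes, 17 were called, 13 higher and 4 lower at CT12. In all 17 the CT12 and CT24 libraries did not overlap, as in most called genes. These 17 genes passed the threshold under each of the 16 other settings that could be run for this contrast, among them the 6 fits without 1 library, with the highest adjusted p at 0.0296. The plot of clock genes by library shows the activators to the left at CT12 and the repressors to the right.

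**Figure D2:**
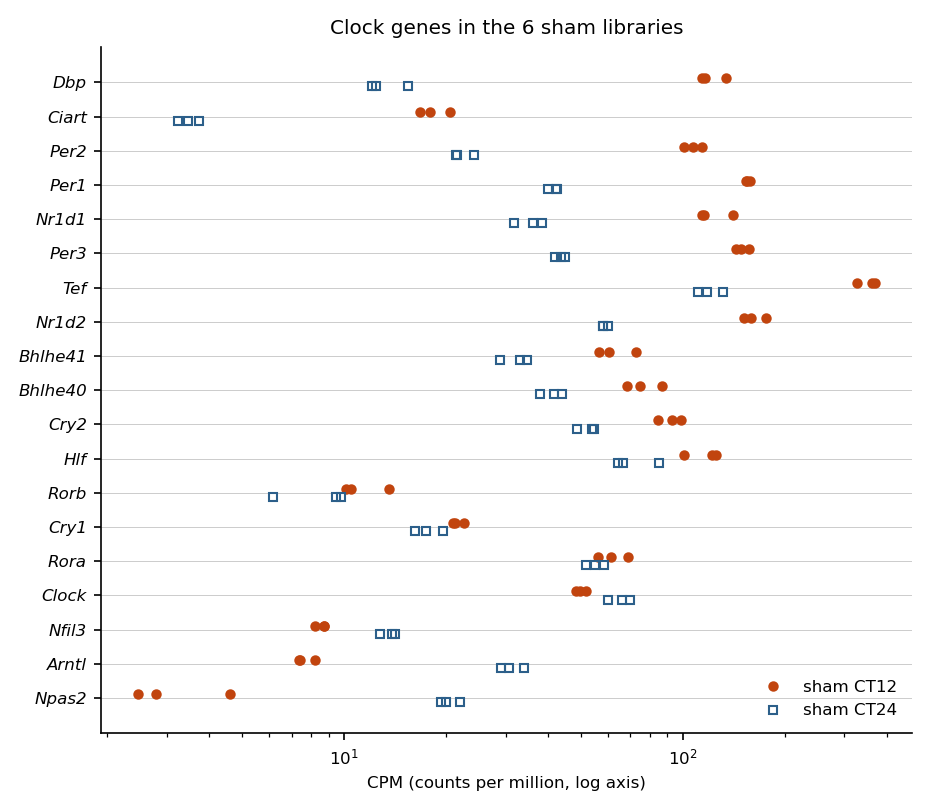
Each row is a core clock gene, 19 of the 20, the horizontal axis is CPM on a log scale, filled circles are the 3 sham CT12 libraries and open squares the 3 sham CT24 libraries. Rows are ordered by log2 fold change, from Dbp, with 134, 117 and 114 CPM at CT12 against 12.096, 12.4 and 15.5 at CT24, down to Npas2.

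All 3 activators were lower at CT12. Arntl, which encodes BMAL1 (GRCm38 chr7:113207465-113314126, plus strand), stood at 8.22, 7.41 and 7.36 CPM at CT12 and 30.7, 29.1 and 34.0 CPM at CT24. All 3 CT12 libraries lay far below the lowest CT24 library, and the log2 fold change was -2.03 (SE 0.16, adjusted p = 6.22e-10). Npas2, which can take the place of CLOCK as the partner of BMAL1, gave 4.61, 2.47 and 2.78 CPM at CT12 and 20.07, 19.35 and 21.9 CPM at CT24, a wider gap (log2 fold change -2.64, SE 0.25, adjusted p = 4.85e-08). Clock itself moved far less. It measured 51.9, 49.8 and 48.6 CPM at CT12 and 60.1, 66.2 and 70.0 CPM at CT24, without overlap (log2 fold change -0.39, SE 0.07, adjusted p = 0.00177). Arntl and Npas2 had their highest sham mean of the day at CT24 and Clock at CT20, and all 3 had their lowest at CT12.

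Of the 8 repressors, 7 were called higher at CT12 and none lower. Per2, whose protein with that of the cryptochromes shuts off BMAL1 and CLOCK, measured 107, 101 and 114 CPM at CT12 and 24.23, 21.5 and 21.4 CPM at CT24 (log2 fold change 2.26, SE 0.14, adjusted p = 1.38e-11). Per1, the Period gene that glucocorticoids also induce, gave 159, 153 and 155 CPM at CT12 and 42.6, 42.2 and 40.1 CPM at CT24 (log2 fold change 1.90, SE 0.15, adjusted p = 6.22e-10). Per3, the third Period gene, gave 157, 143 and 149 CPM at CT12 and 42.0, 43.9 and 45.0 CPM at CT24 (log2 fold change 1.78, SE 0.16, adjusted p = 2.07e-08). In each of these genes the replicates of a time lay close together and the 2 times were far apart.

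Among the accessory repressors, Ciart, whose product CHRONO binds BMAL1, rose most, from 3.74, 3.22 and 3.47 CPM at CT24 to 20.6, 17.95 and 16.7 CPM at CT12 (log2 fold change 2.404, SE 0.18, adjusted p = 2.88e-10). Bhlhe41 and Bhlhe40, which encode DEC2 and DEC1 and compete for E-boxes, were higher by 0.97 ± 0.11 and 0.90 ± 0.09 on the log2 scale (± SE, adjusted p = 7.25e-07 and 2.90e-07). The cryptochromes differed from each other in the call. Cry2 measured 98.8, 84.6 and 93.2 CPM at CT12 and 54.1, 48.7 and 54.6 CPM at CT24 (log2 fold change 0.81, SE 0.07, adjusted p = 1.97e-08), whereas Cry1 measured 21.0, 21.3 and 22.7 CPM at CT12 and 19.6, 16.19 and 17.4 CPM at CT24 and was not called (log2 fold change 0.29, SE 0.10, adjusted p = 0.101). The highest sham mean of Cry1 came later, at CT16, and its lowest at CT08.

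The REV-ERB receptors were high at CT12. Nr1d1 (REV-ERB alpha) measured 140.4, 115 and 114 CPM at CT12 and 36.2, 31.7 and 38.5 CPM at CT24 (log2 fold change 1.79, SE 0.22, adjusted p = 4.73e-06) and Nr1d2 (REV-ERB beta) 176, 151 and 159 CPM at CT12 and 58.1, 58.0 and 60.4 CPM at CT24 (log2 fold change 1.46, SE 0.14, adjusted p = 9.48e-08). For Nr1d1 the highest sham mean of the day was at CT08 and the lowest at CT20, so the 2 times compared were not its extremes. The ROR genes Rora (0.17 ± 0.08, adjusted p = 0.183) and Rorb (0.43 ± 0.17, adjusted p = 0.141) were not called.

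The PAR bZIP factors, which relay the clock to output genes, were all higher at CT12. Dbp had the largest ratio of the core clock genes, 9.13-fold, from 12.096, 12.4 and 15.5 CPM at CT24 to 134, 117 and 114 CPM at CT12 (log2 fold change 3.19, SE 0.28, adjusted p = 6.68e-09). Tef gave 370.1, 327 and 363 CPM at CT12 and 118, 111 and 132 CPM at CT24 (log2 fold change 1.55, SE 0.12, adjusted p = 4.94e-10) and Hlf 125, 101 and 122 CPM at CT12 and 64.3, 66.9 and 85.4 CPM at CT24 (log2 fold change 0.68, SE 0.12, adjusted p = 0.000517). Nfil3, the repressor that competes with them for the D-box, went the other way, with 8.22, 8.71 and 8.70 CPM at CT12 and 14.1, 13.9 and 12.8 CPM at CT24 (log2 fold change -0.67, SE 0.13, adjusted p = 0.00246). Its 3 CT12 libraries lay below all 3 at CT24.

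Of 13 genes whose products modify clock proteins, 3 were called, all higher, against 4.11% called higher among all genes tested. Usp2, a deubiquitinase, stood apart from the others with 63.2, 52.2 and 61.7 CPM at CT12 and 24.8, 22.3 and 26.7 CPM at CT24 (log2 fold change 1.26, SE 0.10, adjusted p = 4.65e-10). The casein kinase gene Csnk1d (0.11 ± 0.03, adjusted p = 0.0371) and the ubiquitin ligase gene Fbxw11 (0.14 ± 0.04, adjusted p = 0.0440) were higher by small steps. Csnk1d (adjusted p = 0.0822) and Fbxw11 (0.122) missed the threshold without CT24 replicate 1. Csnk1d (adjusted p = 0.221) and Fbxw11 (0.211) missed the threshold without CT24 replicate 2. Csnk1d (adjusted p = 0.175) and Fbxw11 (0.361) missed the threshold without CT12 replicate 1. Csnk1d (adjusted p = 0.0584) missed the threshold without CT12 replicate 2. Csnk1d (adjusted p = 0.109) and Fbxw11 (0.0855) missed the threshold without CT12 replicate 3. Fbxw11 (adjusted p = 0.0826) missed it with the muscle and marrow scores in the model. Csnk1d (adjusted p = 0.107) and Fbxw11 (0.130) missed it with the brain score in the model. The other 10, among them Csnk1e, Btrc, Sik1 and Nampt, were not called and lay between -0.15 and 0.17.

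The sequences before the start sites of clock genes are shown because the activators, PAR bZIP factors and ROR receptors described above are known to bind short motifs there. RefSeq windows of GRCm38.p6, which run from 250 bases before to 50 after a start site, were found for 17 of the 20 core clock genes. Each was searched on both strands for the E-box CACGTG, the D-box TTATGTAA or TTACGTAA and the ROR element core TAGGTCA. The 250 bases before the start are printed 5′ to 3′ on the gene's strand for 5 clock genes that hold a match there and for Klf15, with the matches in capitals. The E-box is in capitals in the first 4, the D-box in Per3 and the ROR element core, on the opposite strand, in Nfil3.
Ciart: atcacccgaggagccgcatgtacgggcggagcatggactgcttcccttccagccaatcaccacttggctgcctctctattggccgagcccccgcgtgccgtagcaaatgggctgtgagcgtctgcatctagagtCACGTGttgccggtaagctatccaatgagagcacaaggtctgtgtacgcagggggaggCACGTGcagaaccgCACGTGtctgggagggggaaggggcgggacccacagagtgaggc
Per1: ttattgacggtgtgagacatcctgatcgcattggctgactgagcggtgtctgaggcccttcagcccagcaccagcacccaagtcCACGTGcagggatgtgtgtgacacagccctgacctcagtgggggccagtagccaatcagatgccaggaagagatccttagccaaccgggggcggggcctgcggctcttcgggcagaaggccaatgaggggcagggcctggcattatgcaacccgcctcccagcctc
Tef: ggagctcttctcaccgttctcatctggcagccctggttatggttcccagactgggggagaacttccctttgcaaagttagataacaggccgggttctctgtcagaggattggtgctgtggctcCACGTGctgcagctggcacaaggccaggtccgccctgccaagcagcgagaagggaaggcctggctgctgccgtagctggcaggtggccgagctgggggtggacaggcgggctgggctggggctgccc
Klf15: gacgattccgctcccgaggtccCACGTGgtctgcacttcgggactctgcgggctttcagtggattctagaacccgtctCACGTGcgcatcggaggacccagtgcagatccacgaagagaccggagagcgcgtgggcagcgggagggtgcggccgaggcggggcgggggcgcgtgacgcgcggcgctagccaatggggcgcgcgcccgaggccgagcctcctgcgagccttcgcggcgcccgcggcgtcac
Per3: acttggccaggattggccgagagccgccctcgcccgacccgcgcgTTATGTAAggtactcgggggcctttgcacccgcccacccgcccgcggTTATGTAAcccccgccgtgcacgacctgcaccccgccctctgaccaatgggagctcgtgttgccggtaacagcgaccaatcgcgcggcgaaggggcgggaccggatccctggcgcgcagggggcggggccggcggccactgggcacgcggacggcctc
Nfil3: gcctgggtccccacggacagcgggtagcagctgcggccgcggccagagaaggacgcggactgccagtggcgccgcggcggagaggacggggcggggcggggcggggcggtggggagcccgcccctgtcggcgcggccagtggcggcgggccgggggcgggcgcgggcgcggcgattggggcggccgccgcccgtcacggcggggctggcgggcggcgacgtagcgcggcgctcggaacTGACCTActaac

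The stretches lie at chr3:95882229-95882478 (minus strand) for Ciart, chr11:69098699-69098948 (plus) for Per1, chr15:81802423-81802672 (plus) for Tef, chr6:90462326-90462575 (plus) for Klf15, chr4:151044666-151044915 (minus) for Per3 and chr13:52981040-52981289 (minus) for Nfil3. Ciart held 3 E-boxes, which began 116, 58 and 44 bases before the start, and Per1 and Tef held 1 each there, at 166 and 127 bases. Klf15, a Kruppel-like factor gene of the glucocorticoid list below, held 3, at 228, 172 and 3 bases, the last of which runs past the start and is not in capitals. The D-boxes of Per3 began 205 and 158 bases before its start and the ROR element core of Nfil3 12 bases before. Bhlhe41 and Cry1 also held an E-box. In all, 5 of the 17 genes held an E-box in at least 1 window. Over single windows, of which some genes have several, the share with an E-box was 7.15% of all 32851, so the counts by gene and by window are not directly comparable, and the D-box was in 1.06% and TAGGTCA in 2.61% of them. Among windows of genes called higher at CT12, 9.83% held an E-box, against 8.93% for all genes tested and 6.52% for genes called lower. A match describes letters and is not evidence of a bound site, and these windows do not include distant elements.

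Several genes outside the clock lists differed strongly. Tspan4, a tetraspanin of the cell membrane, measured 68.7, 61.6 and 66.2 CPM at CT12 and 26.3, 25.4 and 26.7 CPM at CT24 (log2 fold change 1.33, SE 0.09, adjusted p = 2.57e-11), with little spread among the replicates of each time. Tcap, which encodes a sarcomere protein, gave 18.1, 17.5 and 14.3 CPM at CT12 and 1.98, 3.15 and 2.10 CPM at CT24 (log2 fold change 2.78, SE 0.46, adjusted p = 0.000397). Its highest sham mean was at CT08. The skeletal muscle score went the other way, with its 2 highest values at CT24, while the summed CPM of its markers overlapped between the times. Odf3l2, a gene named for outer dense fibres of sperm tails, gave 18.9, 15.21 and 16.01 CPM at CT12 and 5.38, 3.80 and 4.64 CPM at CT24 (log2 fold change 1.86, SE 0.27, adjusted p = 6.93e-05).

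Spon2, a secreted matrix protein gene, was the called gene of smallest p among those lower at CT12, with 1.88, 2.15 and 2.08 CPM at CT12 and 8.70, 7.56 and 8.81 CPM at CT24 (log2 fold change -2.03, SE 0.14, adjusted p = 1.15e-10). The replicates of each time lay close together and far from those of the other time. Lpl, which encodes lipoprotein lipase, the enzyme that frees fatty acids from circulating lipoproteins, fell from 152, 187 and 137 CPM to 51.6, 64.3 and 52.3 CPM (log2 fold change -1.50, SE 0.15, adjusted p = 9.98e-08). Hkdc1, a gene of the hexokinase family, gave 0.517, 0.359 and 0.648 CPM at CT12 and 1.87, 1.72 and 2.29 CPM at CT24 (log2 fold change -1.94, SE 0.29, adjusted p = 0.000123). All 3 genes had their highest sham mean at CT24 and their lowest at CT12.

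Dio2, which encodes the deiodinase that makes active thyroid hormone, measured 21.0, 22.2 and 18.3 CPM at CT12 and 47.9, 52.4 and 60.1 CPM at CT24 (log2 fold change -1.38, SE 0.22, adjusted p = 0.000209). Its highest sham mean was at CT20. The arrestin-domain gene Arrdc4 (-0.56 ± 0.08, adjusted p = 2.64e-05), the death-associated kinase gene Dapk2 (-0.61 ± 0.08, adjusted p = 2.93e-05) and Dtx4 (-0.44 ± 0.07, adjusted p = 0.000132) were lower by smaller steps without overlap. Adamts15, a matrix protease gene, had a log2 fold change of -1.24 ± 0.19 (adjusted p = 0.000175), and Pou2f3, a transcription factor gene, one of -1.27 ± 0.24 (adjusted p = 0.00197). The forkhead factor gene Foxs1 (-1.14 ± 0.19, adjusted p = 0.000456) and Rasl11a (-1.33 ± 0.20, adjusted p = 0.000141) belonged to the same range.

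A few genes with large ratios had low counts. Slc6a5, the neuronal glycine transporter gene, had 58, 40 and 41 counts at CT12 and 0, 1 and 5 at CT24 (log2 fold change 4.76, SE 1.11, adjusted p = 0.0106). With so few counts at CT24, its ratio is uncertain. The secreted synaptic protein gene Cbln4 (1.76 ± 0.44), the neuronal gene Lamp5 (1.90 ± 0.54) and Gkn3 (1.71 ± 0.39) were below 5 CPM in all 6 libraries. Slc6a5 (adjusted p = 0.0518), Cbln4 (0.0611) and Lamp5 (0.0922) missed the threshold without CT24 replicate 1. Slc6a5 (adjusted p = 0.0799), Cbln4 (0.0987) and Lamp5 (0.165) missed the threshold without CT24 replicate 2. Slc6a5 (adjusted p = 0.0572), Cbln4 (0.0858) and Lamp5 (0.143) missed the threshold without CT12 replicate 1. Lamp5 (adjusted p = 0.0528) missed the threshold without CT12 replicate 2. Lamp5 (adjusted p = 0.0541) and Gkn3 (0.0638) missed the threshold without CT12 replicate 3. All 4 also missed the threshold when the brain score entered the model, with adjusted p of 0.179 for Slc6a5, 0.140 for Cbln4, 0.303 for Lamp5 and 0.0533 for Gkn3, and Cbln4 and Lamp5 with the muscle and marrow scores (0.0534 and 0.0926). Among lower genes, the immunoglobulin light chain segment Igkv7-33 (-3.63 ± 0.97, adjusted p = 0.0235) shares reads with near-identical segments and is uncertain. Xlr4c (-1.22 ± 0.30, adjusted p = 0.0155) and the matrix protease gene Mmp3 (-1.21 ± 0.30, adjusted p = 0.0143) were near or below 2 CPM. Igkv7-33 (adjusted p = 0.156) and Xlr4c (0.0510) missed the threshold without CT24 replicate 1. Igkv7-33 (adjusted p = 0.152), Xlr4c (0.0917) and Mmp3 (0.0702) missed the threshold without CT12 replicate 1. Igkv7-33 (adjusted p = 0.104), Xlr4c (0.0968) and Mmp3 (0.0968) missed the threshold without CT12 replicate 3. Xlr4c (adjusted p = 0.0826) missed the threshold without CT24 replicate 2. Igkv7-33 (adjusted p = 0.160) missed it with the muscle and marrow scores in the model. Igkv7-33 (adjusted p = 0.143) and Xlr4c (0.103) missed it with the brain score in the model.

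**Figure D3:**
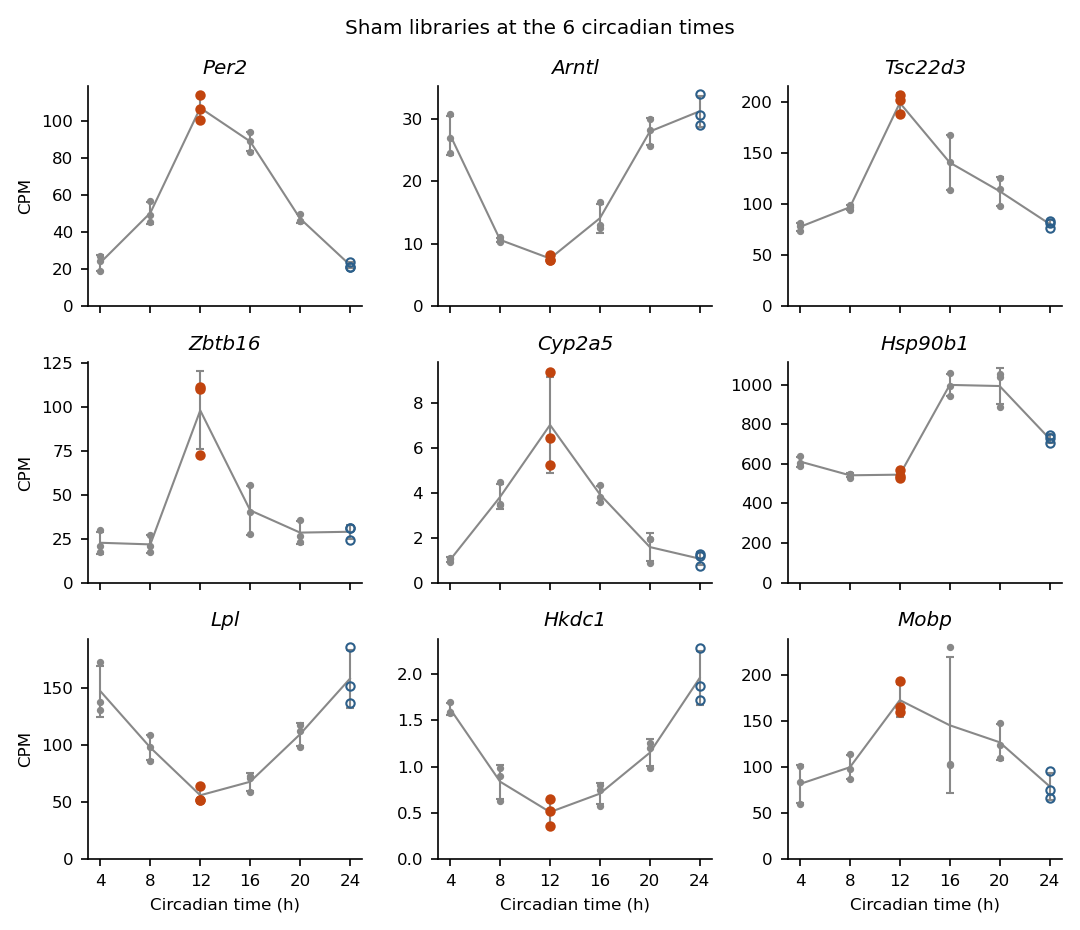
CPM of 9 genes in the 18 sham libraries by circadian time in hours; points are libraries (filled red CT12, open blue CT24, grey the other times) and the grey line joins the means with 1 SD on each side. Per2, Zbtb16, Tsc22d3, Cyp2a5 and Mobp have their highest mean at CT12, and Arntl, Lpl and Hkdc1 their lowest, whereas Hsp90b1 has its lowest mean at CT08 and its highest at CT16.

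Genes known to be induced by glucocorticoids were mostly higher at CT12. Of 30 such genes tested, 17 were called higher and 2 lower, with a median log2 fold change of 0.58, against -0.01 for all genes. Each of the 17 had its highest sham mean of the day at CT12, and in none did the 2 times overlap. Both traits were common among genes called higher. Between 14 and 17 of the 30 were called higher and 2 lower under each of the 16 other settings, with the 14 in the fit without CT24 replicate 2. With the brain score in the model, 15 were called higher. Per1, counted above among the repressors, belongs to this list as well.

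Tsc22d3, which encodes the anti-inflammatory factor GILZ, measured 189, 203 and 207 CPM at CT12 and 83.6, 76.9 and 82.1 CPM at CT24 (log2 fold change 1.30, SE 0.12, adjusted p = 2.86e-08). Zbtb16, a zinc finger repressor gene, measured 110.2, 72.5 and 111 CPM at CT12 and 31.4, 31.3 and 24.33 CPM at CT24, with the lowest CT12 library more than 2-fold above the highest at CT24 (log2 fold change 1.76, SE 0.32, adjusted p = 0.00109). Hif3a, a hypoxia-inducible factor subunit gene, gave 9.30, 13.0 and 17.9 CPM at CT12 and 4.01, 4.41 and 3.87 CPM at CT24 (log2 fold change 1.71, SE 0.36, adjusted p = 0.00539), with the CT12 libraries more spread than those at CT24. The Kruppel-like factor genes Klf9 and Klf15 were higher by 0.93 ± 0.11 and 1.03 ± 0.14 (adjusted p = 4.76e-06 and 2.12e-05).

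The lipid droplet gene Plin4 gave 79.8, 59.5 and 78.0 CPM at CT12 and 28.5, 20.7 and 30.9 CPM at CT24 (log2 fold change 1.44, SE 0.24, adjusted p = 0.000371) and the arrestin-domain gene Arrdc2 43.8, 41.7 and 44.3 CPM at CT12 and 24.8, 25.5 and 21.0 CPM at CT24 (log2 fold change 0.86, SE 0.11, adjusted p = 1.38e-05). Both were without overlap. The other called members were Fkbp5, a co-chaperone of the glucocorticoid receptor (1.24), the kinase genes Map3k6 (1.18) and Sgk1 (0.61), the metallothioneins Mt1 (0.71) and Mt2 (0.99), Ddit4 (0.74), Glul (0.56), Nfkbia (0.34) and Errfi1 (0.33). Nfkbia missed the threshold without CT24 replicate 2 (adjusted p = 0.0768). For Fkbp5, Map3k6, Sgk1, Mt1, Mt2, Ddit4 and Errfi1, the fits that ended a call are not given by gene. The 2 called lower were Cdkn1a, a cell cycle inhibitor gene (log2 fold change -0.44, SE 0.08, adjusted p = 0.000747), and Angptl4, an inhibitor of lipoprotein lipase (log2 fold change -0.65, SE 0.14, adjusted p = 0.00570). The 11 members not called ran from -0.65 in Tat to 0.77 in Sult1a1.

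None of 7 genes for corticosteroid receptors, their coregulators and the enzymes that convert corticosterone was called by edgeR's test, 3 had an unadjusted p below 0.05, and DESeq2 called 1. Nr3c1, the glucocorticoid receptor gene, measured 119.6, 118 and 121 CPM at CT12 and 116, 124 and 120.4 CPM at CT24, a log2 fold change of -0.01 (SE 0.07), and the times overlapped. Nr3c2, the mineralocorticoid receptor gene, gave 55.6, 50.5 and 53.9 CPM at CT12 and 41.3, 41.7 and 44.9 CPM at CT24 and missed the threshold (log2 fold change 0.32, SE 0.11, adjusted p = 0.0647).

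The ADX libraries at the same times gave 153 called genes (0.678%), 95 higher (0.421%) and 58 lower (0.257%) at CT12. Of these, 115 were also called in sham, all with the same sign, which is 75.2% of the ADX list and 8.67% of the sham list. Among the 1327 genes called in sham, 1262 (95.1%) had the same sign in ADX, against 70.1% of all genes. The test of the difference between the sham and ADX contrasts called 0 genes by edgeR's quasi-likelihood test. At an unadjusted p of 0.05 it gave 981 genes (4.35%), and DESeq2 called 1, Rasl12. A gene called in sham and not in ADX is thus not shown to differ between them. The 2 contrasts also differed in markers of carried-over tissue. The 15 skeletal muscle markers were all positive in ADX, with a median of 2.75, against -0.70 in sham. For 11 markers of middle ear cilia and mucosa the median was 0.62 in ADX and -0.10 in sham. Their part in the ADX calls was not tested beyond the model with muscle and marrow scores.

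The 17 called core clock genes kept their direction in ADX, and 14 of them were called there too. All 17 had a smaller absolute log2 fold change in ADX, as in Per2 (1.49 ± 0.14 against 2.26 ± 0.14 in sham), Dbp (2.47 ± 0.27 against 3.19 ± 0.28) and Nr1d1 (1.71 ± 0.22 against 1.79 ± 0.22). Their choice by the sham call favours a larger value in sham, so this count is a description. The difference between sham and ADX had an unadjusted p of 0.000367 in Per2 and 0.000569 in Per1, and neither passed after adjustment (0.999 and 0.999).

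Of the 17 glucocorticoid-induced genes called higher in sham, 2 (Per1 and Tsc22d3) were called in ADX, although all 17 were positive there. Their ADX log2 fold changes ran from 0.07 to 1.11, against 0.33 to 1.90 in sham. Hif3a gave 0.29 ± 0.37 in ADX and 1.71 ± 0.36 in sham, and Zbtb16 0.49 ± 0.32 and 1.76 ± 0.32. The choice of the 17 by the sham call favours larger values in sham, so these counts and values are descriptions. In ADX, 3 of all 30 members were called higher and 1 lower. Over all 30 members, 23 had a larger value in sham, with a median difference of 0.29, against 0.00 for all genes, and 12 had an unadjusted p below 0.05 for the difference. By edgeR's quasi-likelihood test the smallest of these was that of Tsc22d3, at a difference of 0.73 ± 0.17 on the log2 scale, with an unadjusted p of 0.000197 and an adjusted one of 0.999.

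**Figure D4:**
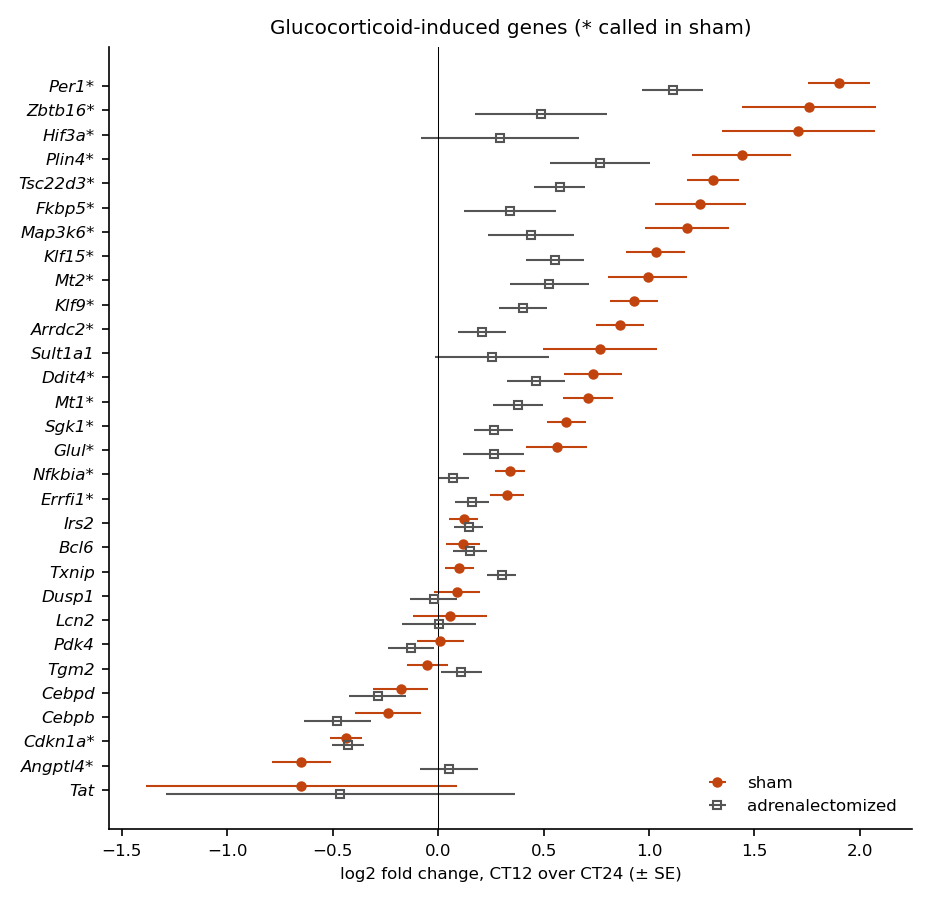
Log2 fold change of CT12 over CT24 with 1 SE on each side for the 30 glucocorticoid-induced genes, as filled red circles in sham and open squares in ADX; an asterisk marks the genes called in sham. The sham value lies to the right of the ADX value in 23 of 30 genes.

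Over all genes, the smallest p of the difference was that of Rasl12, a gene of the Ras-like family. In sham it measured 42.1, 33.6 and 34.7 CPM at CT12 and 22.9, 17.3 and 20.9 CPM at CT24 (log2 fold change 0.85, SE 0.11, adjusted p = 1.01e-05), and in ADX its log2 fold change was 0.06 ± 0.11. The adjusted p of the difference was 0.437 in the reported fit, 0.0201 by DESeq2, 0.0396 with muscle and marrow scores in the model and 0.0287 without ADX CT12 replicate 1. The smallest adjusted p over all genes, of Rasl12 or another gene, ran from 0.191 to 1 in the other 14 fits. Ccdc124, Tsc22d3, Cox19 and Usp2 had unadjusted p from 0.000131 to 0.000320.

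Part of the genes of energy metabolism were higher at CT12, by small steps. Of 16 glycolysis genes, 10 were called higher and none lower, with log2 fold changes of the called genes from 0.20 to 0.44 and a median of 0.21 over all 16. The 10 had no overlap between the times, and each had its highest sham mean at CT12, as did most genes called higher. Slc2a1, which encodes the glucose transporter GLUT1, measured 152, 136 and 156 CPM at CT12 and 104, 100.1 and 122 CPM at CT24 (log2 fold change 0.44, SE 0.08, adjusted p = 0.00157). Gapdh gave 312, 294 and 291 CPM at CT12 and 259, 242 and 257 CPM at CT24 (log2 fold change 0.24, SE 0.05, adjusted p = 0.00309), a difference in a gene often used as a reference. Pfkl (0.30 ± 0.07), the phosphofructokinase gene, Pgk1 (0.25 ± 0.06) and Pfkfb3 (0.26 ± 0.06) were called as well (adjusted p = 0.00683, 0.00995 and 0.0123). The others were Pfkm, Aldoa, Tpi1, Pgam1 and Pkm. Pfkl (adjusted p = 0.0806), Pgk1 (0.0976) and Pfkfb3 (0.0838) missed the threshold without CT24 replicate 2. Pfkl (adjusted p = 0.106), Pgk1 (0.115) and Pfkfb3 (0.168) missed the threshold without CT12 replicate 1. The count was 2 without CT24 replicate 2, 2 without CT12 replicate 1, 5 without CT24 replicate 1 and 1 when only the 6 libraries were fitted. In ADX, none of the 16 was called, 13 were positive and the median was 0.08.

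Of 25 nuclear genes for subunits of oxidative phosphorylation, 7 were called higher and none lower, and 23 of 25 were positive, with a median of 0.11. In ADX, none of the 25 was called, 14 were positive and the median was 0.03. The genes called in sham rose by 0.14 to 0.22, as in the cytochrome c oxidase gene Cox4i1, with 299, 283 and 281 CPM at CT12 and 254, 246 and 251 CPM at CT24 (log2 fold change 0.20, SE 0.04, adjusted p = 0.00476), and the complex I gene Ndufv1, with 141, 136 and 134 CPM at CT12 and 119, 113 and 121 CPM at CT24 (log2 fold change 0.22, SE 0.05, adjusted p = 0.00918). Sdha, Uqcrc1, Cox6b1, Atp5a1 and Atp5o were the other 5, and none of the 7 overlapped between the times, as in most called genes. Cox4i1 (adjusted p = 0.0682) and Ndufv1 (0.0767) missed the threshold without CT12 replicate 1. Ndufv1 (adjusted p = 0.0796) missed the threshold without CT24 replicate 2. The count of 7 fell to 0 without CT12 replicate 1, to 1 without CT24 replicate 2, to 3 without CT24 replicate 1, to 3 without CT12 replicate 3, to 1 with the 18 sham libraries alone, to 0 with the 6 libraries alone and to 2 without a filter or with the brain score. None of 24 cytosolic ribosomal protein genes was called by edgeR's test or by DESeq2, with a median of -0.03 and 2 at an unadjusted p below 0.05. Of 19 ribosome biogenesis genes, Bop1 alone was called (log2 fold change 0.22, SE 0.07, adjusted p = 0.0472), a share near the 5.88% called among all genes. Bop1 missed the threshold without CT24 replicate 2 (adjusted p = 0.286), CT24 replicate 3 (0.0735), CT12 replicate 1 (0.203), CT12 replicate 2 (0.0673) and CT12 replicate 3 (0.105). Bop1 (adjusted p = 0.134) missed it with the brain score in the model.

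Of 18 genes that oxidize and conjugate foreign compounds, 8 were called higher at CT12 and none lower, with a median of 0.31. Cyp2a5, a cytochrome P450 gene, measured 5.26, 9.38 and 6.43 CPM at CT12 and 1.18, 1.29 and 0.737 CPM at CT24, a 6.54-fold difference (log2 fold change 2.71, SE 0.35, adjusted p = 1.26e-05). The flavin monooxygenase genes Fmo2 and Fmo1 gave 28.8, 37.4 and 39.6 CPM at CT12 and 14.6, 13.5 and 12.7 CPM at CT24 (log2 fold change 1.38, SE 0.16, adjusted p = 3.10e-06) and 31.7, 40.3 and 37.7 CPM at CT12 and 20.34, 20.17 and 19.8 CPM at CT24 (log2 fold change 0.86, SE 0.10, adjusted p = 2.41e-06). Por, the reductase that passes electrons to all microsomal P450 enzymes, rose from 95.5, 101 and 107 CPM to 153, 154 and 147 CPM (log2 fold change 0.58, SE 0.06, adjusted p = 9.98e-08). Gstt1, a glutathione transferase gene, was higher by 0.45 ± 0.07 (adjusted p = 0.000175). In ADX, these 5 genes were called as well, with 2.46, 1.10, 0.71, 0.52 and 0.36 in the order named. Cyp4b1, Aldh3a1 and Ephx1 were the other 3 called in sham. The count of 8 stayed between 5 and 8 under the other settings, the lowest without CT24 replicate 2.

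Lipid genes moved in both directions. Beside Lpl and Angptl4, which were lower, and Plin4, which was higher, the lipase gene Pnpla2 was called higher (log2 fold change 0.24, SE 0.07, adjusted p = 0.0314) among 14 genes of lipid uptake and storage. Of 13 fatty acid synthesis genes, 3 were called higher. These were the desaturase genes Fads1 (log2 fold change 0.24, SE 0.04, adjusted p = 0.00144) and Fads2 (log2 fold change 0.30, SE 0.06, adjusted p = 0.00536) and the carboxylase gene Acacb (log2 fold change 0.37, SE 0.10, adjusted p = 0.0295). Of 19 sterol synthesis genes, Fdft1 alone was called (0.23 ± 0.06, adjusted p = 0.0275), a share near the 5.88% called among all genes. Pnpla2 (adjusted p = 0.0531) missed the threshold without CT24 replicate 1. Pnpla2 (adjusted p = 0.216), Acacb (0.222) and Fdft1 (0.216) missed the threshold without CT24 replicate 2. Pnpla2 (adjusted p = 0.172), Fads2 (0.0732), Acacb (0.259) and Fdft1 (0.123) missed the threshold without CT12 replicate 1. Pnpla2 (adjusted p = 0.135), Acacb (0.0623) and Fdft1 (0.0650) missed the threshold without CT12 replicate 3. Fdft1 (adjusted p = 0.0593) missed the threshold without CT12 replicate 2. Pnpla2 (adjusted p = 0.0609), Acacb (0.102) and Fdft1 (0.0517) missed it with the muscle and marrow scores in the model. Pnpla2 (adjusted p = 0.140) and Fdft1 (0.117) missed it with the brain score in the model.

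**Figure D5:**
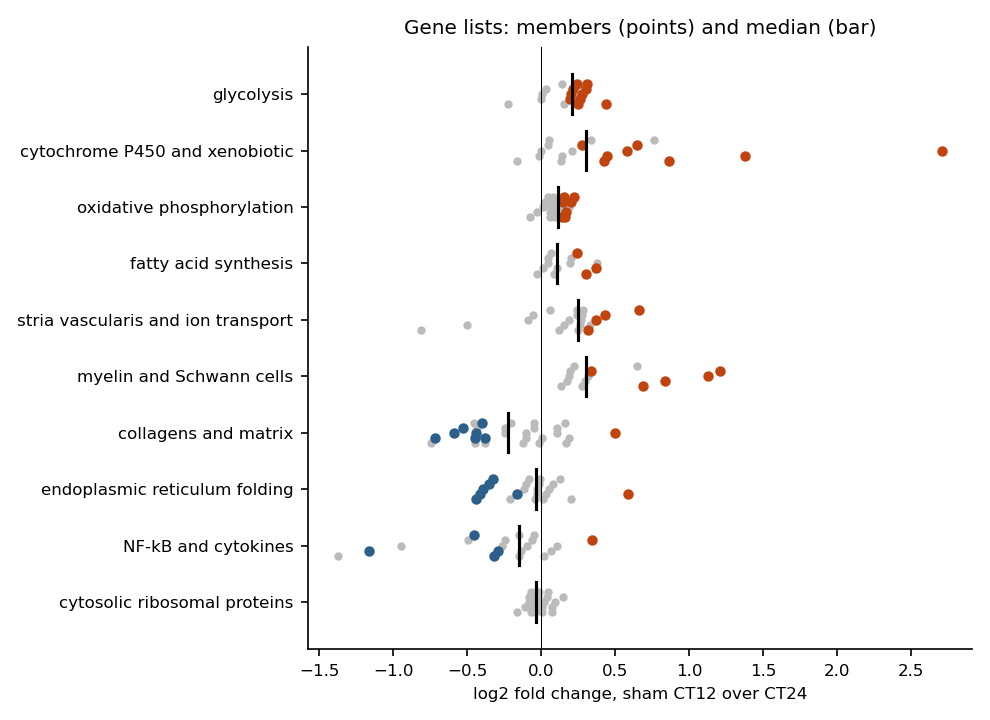
Log2 fold change of sham CT12 over CT24 for the members of 10 gene lists, 1 point per gene, red where called higher, blue where called lower and grey where not called; the black bar is the list's median. Called members of glycolysis, P450 and xenobiotic, oxidative phosphorylation, fatty acid synthesis, stria vascularis and myelin lists lie to the right, 6 of 7 called folding genes and 7 of 8 called matrix genes to the left, and no ribosomal protein gene was called.

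Some folding factors of the endoplasmic reticulum were lower at CT12. Of 22 genes of this list, 6 were called lower and 1 higher, with a median of -0.04 over all. Hsp90b1, the chaperone GRP94, measured 528, 571 and 537 CPM at CT12 and 704, 745 and 733 CPM at CT24 (log2 fold change -0.41, SE 0.08, adjusted p = 0.00179), Calr, the calcium-binding chaperone calreticulin, 466, 508 and 464 CPM at CT12 and 612, 644 and 636 CPM at CT24 (log2 fold change -0.40, SE 0.06, adjusted p = 0.000214) and Pdia3, a disulfide isomerase, 351, 373 and 353 CPM at CT12 and 435, 466 and 472 CPM at CT24 (log2 fold change -0.35, SE 0.07, adjusted p = 0.00170). Pdia6, Sdf2l1 and Canx were the other 3. In ADX, 5 of this list were called lower, and Hsp90b1 gave -0.43 ± 0.08 and Calr -0.37 ± 0.06. Herpud1, a gene of the degradation branch of the same response, was the exception, with 143, 139 and 139 CPM at CT12 and 97.9, 87.6 and 95.1 CPM at CT24 (log2 fold change 0.59, SE 0.05, adjusted p = 1.40e-08). The number called lower was 3 without CT12 replicate 1, 4 without CT24 replicate 2 or CT12 replicate 3, and 3 with the brain score. Of 19 cytosolic chaperone genes, Hspa8 alone was called, a share near the 5.88% called among all genes. Hspa8 was higher (log2 fold change 0.33, SE 0.07, adjusted p = 0.00380). The cold-inducible RNA-binding genes Cirbp (0.29 ± 0.11) and Rbm3 (0.30 ± 0.11) were not called.

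Matrix genes were lower at CT12 more than higher, 7 against 1 of 28, with a median of -0.23. The glycoprotein gene Tnc measured 203, 239.9 and 232 CPM at CT12 and 304, 386 and 325 CPM at CT24 (log2 fold change -0.59, SE 0.12, adjusted p = 0.00329), the fibrillin gene Fbn1 52.6, 59.5 and 56.3 CPM at CT12 and 79.1, 102 and 95.6 CPM at CT24 (log2 fold change -0.72, SE 0.13, adjusted p = 0.000999) and the basement membrane collagen gene Col4a1 100.0, 103 and 96.4 CPM at CT12 and 129, 148 and 155 CPM at CT24 (log2 fold change -0.53, SE 0.10, adjusted p = 0.00211). Col4a2, Col5a1, Col6a1 and the crosslinking enzyme gene Lox were the other 4. Timp3, an inhibitor of matrix proteases, went up, with 736, 734 and 785 CPM at CT12 and 446, 571 and 576 CPM at CT24 (log2 fold change 0.50, SE 0.10, adjusted p = 0.00195). The number called lower fell to 2 without CT24 replicate 2 and to 4 without CT12 replicate 1 or CT12 replicate 3. Tnc missed the threshold without CT24 replicate 2 (adjusted p = 0.0550). In ADX the median of this list had the other sign, at 0.09, with 20 of 28 positive, 1 called higher and 1 called lower. No member passed the test of the difference between sham and ADX.

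Inflammatory and bone resorption genes held a few lower calls, where 1.77% of all genes tested were called lower. Among 19 genes of NF-kB signalling and cytokines, Il1b, which encodes interleukin 1 beta, measured 4.42, 5.48 and 5.37 CPM at CT12 and 7.36, 12.0 and 14.9 CPM at CT24 (log2 fold change -1.16, SE 0.27, adjusted p = 0.0103). Il1rn, Il1r1 and Tlr2 were also called lower, and the inhibitor gene Nfkbia was called higher. Without CT24 replicate 2 none of the 5 was called, and without CT12 replicate 1 Nfkbia alone was. Without CT24 replicate 1 and with the muscle and marrow scores, 2 and 1 were lower, respectively. The osteoclast genes Acp5, with 64.0, 88.3 and 82.5 CPM at CT12 and 153, 182 and 109 CPM at CT24 (log2 fold change -0.92, SE 0.23, adjusted p = 0.0147), and Atp6v0d2, with 4.37, 6.01 and 5.37 CPM at CT12 and 12.096, 14.9 and 8.81 CPM at CT24 (log2 fold change -1.18, SE 0.29, adjusted p = 0.0159), were 2 lower calls among 11. Acp5 (adjusted p = 0.134) and Atp6v0d2 (0.130) missed the threshold without CT24 replicate 2. Acp5 (adjusted p = 0.119) and Atp6v0d2 (0.112) missed the threshold without CT12 replicate 1. Atp6v0d2 (adjusted p = 0.0560) missed the threshold without CT12 replicate 3. Atp6v0d2 (adjusted p = 0.0552) missed it with the muscle and marrow scores in the model. In ADX, neither was called (0.05 ± 0.22 and -0.10 ± 0.29), and the differences did not pass (adjusted p = 0.999 and 0.999).

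Interferon-stimulated genes were all negative, 17 of 17 with a median of -0.63, yet none was called by edgeR's test. At an unadjusted p below 0.05 there were 13, DESeq2 called 3, and 5 were called without CT24 replicate 1 and 2 without CT12 replicate 2. Mx1, an antiviral gene, measured 2.35, 3.59 and 2.64 CPM at CT12 and 3.36, 6.59 and 5.94 CPM at CT24, and Isg15, a ubiquitin-like modifier, 8.60, 13.2 and 9.35 CPM at CT12 and 12.4, 23.4 and 14.7 CPM at CT24. CT24 replicate 2 was the highest of the 6 libraries in 16 of the 17 genes, and CT24 replicate 3 lay above every CT12 library in 16. CT24 replicate 1 was no higher than the highest CT12 library in 15. In ADX, none of the 17 was called, all 17 were negative and the median was -0.40.

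Cochlear cell types differed unevenly, where 4.11% of all genes tested were called higher and 1.77% lower. Of 20 genes of the stria vascularis, the epithelium that secretes endolymph, and of ion transport, 4 were called higher and none lower, with a median of 0.25. Cldn11, the tight junction gene of its basal cells, measured 272, 235 and 246 CPM at CT12 and 155, 155 and 167 CPM at CT24 (log2 fold change 0.66, SE 0.10, adjusted p = 0.000175) and Slc26a4, which encodes the anion exchanger pendrin, 228, 195 and 184 CPM at CT12 and 172, 133 and 146 CPM at CT24 (log2 fold change 0.43, SE 0.10, adjusted p = 0.0122). Esrrb, an orphan nuclear receptor gene, and Kcnj10, the potassium channel gene of intermediate cells, were higher by 0.37 ± 0.10 and 0.32 ± 0.09 (adjusted p = 0.0191 and 0.0444). Slc26a4 (adjusted p = 0.125), Esrrb (0.156) and Kcnj10 (0.261) missed the threshold without CT24 replicate 2. Slc26a4 (adjusted p = 0.142), Esrrb (0.212) and Kcnj10 (0.420) missed the threshold without CT12 replicate 1. Kcnj10 (adjusted p = 0.0619) missed the threshold without CT24 replicate 1. Kcnj10 (adjusted p = 0.0674) missed the threshold without CT12 replicate 3. Esrrb (adjusted p = 0.0743) and Kcnj10 (0.173) missed it with the muscle and marrow scores in the model. Cldn11 passed in all 6 fits without 1 library. The count of 4 was 1 without CT24 replicate 2, 1 without CT12 replicate 1, 1 with the 6 libraries alone and 2 with the muscle and marrow scores, but 6 without CT12 replicate 2 and 7 with the brain score.

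Of 18 genes of mechanotransduction and the hair bundle, 1 was called, the scaffold gene Whrn (log2 fold change 0.45, SE 0.13, adjusted p = 0.0303), a share near the 5.88% called among all genes. Of 18 genes of the hair cell motor, synapse and identity none was called by edgeR's test, 4 had an unadjusted p below 0.05 and DESeq2 called 1. Otof, the synaptic calcium sensor of inner hair cells, measured 102, 88.6 and 95.2 CPM at CT12 and 73.4, 86.3 and 91.0 CPM at CT24 (log2 fold change 0.19, SE 0.18, adjusted p = 0.568). Slc26a5, the outer hair cell motor prestin, measured 5.08, 5.21 and 4.397 CPM at CT12 and 3.66, 1.97 and 4.202 CPM at CT24 and missed the threshold (log2 fold change 0.58, SE 0.20, adjusted p = 0.0796). Whrn missed the threshold without CT24 replicate 1 (adjusted p = 0.128), CT24 replicate 2 (0.126), CT12 replicate 1 (0.165) and CT12 replicate 3 (0.0635). Whrn (adjusted p = 0.0819) missed it with the muscle and marrow scores in the model. Whrn (adjusted p = 0.147) missed it with the brain score in the model.

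Of 14 myelin genes, all were positive and 5 were called higher at CT12, and the median was 0.31. Mbp, a structural protein gene of myelin, measured 1254, 1277 and 1240.5 CPM at CT12 and 779.8, 736 and 822 CPM at CT24 (log2 fold change 0.69, SE 0.18, adjusted p = 0.0222) and Mobp, a gene of central myelin, 166, 193 and 159.6 CPM at CT12 and 95.2, 66.8 and 75.5 CPM at CT24 (log2 fold change 1.13, SE 0.30, adjusted p = 0.0252). Mog (1.21 ± 0.31) and Mag (0.84 ± 0.22) showed the same gap (adjusted p = 0.0199 and 0.0211), and the glial factor gene Sox10 a smaller one (0.34 ± 0.10, adjusted p = 0.0459). The groups did not overlap in these 5 genes, as in most called genes. None of the 5 was called without CT24 replicate 2, CT12 replicate 1 or CT12 replicate 3, nor with the muscle and marrow scores, 2 were without CT24 replicate 1 and 1 was with the brain score. In ADX, none of the 14 was called, 13 were positive and the median was 0.20.

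The brain and oligodendrocyte markers, which share Mog and Mobp with the myelin list, stood higher at CT12 as well. All 11 were positive, with 3 called (Mog, Mobp and the glutamate transporter gene Slc1a2), and their summed level ran from 1101 to 1207 CPM at CT12 and from 760 to 886 CPM at CT24. Slc1a2 missed the threshold without CT24 replicate 1 (adjusted p = 0.117), CT24 replicate 2 (0.144), CT12 replicate 1 (0.150), CT12 replicate 2 (0.0558) and CT12 replicate 3 (0.0521). Slc1a2 (adjusted p = 0.0592) missed it with the muscle and marrow scores in the model. Slc1a2 (adjusted p = 0.278) missed it with the brain score in the model. The defining granule cell markers Neurod1 and Gabra6 were near 0, at no more than 1.20 CPM in any of the 6 libraries. Aqp4 and Gfap, of the same 11 markers, were not near 0, at 73.1, 79.4 and 77.0 and at 138, 188 and 157 CPM at CT12. Which cells these transcripts came from was not tested. With the brain score as a covariate, chosen after seeing the data, 859 genes were called in place of 1327, and 717 of them were among the 1327. In ADX, none of the 11 markers was called, 10 were positive and the median was 0.43. The share of nerve tissue in the libraries and the level of myelin transcripts per cell cannot be told apart here.

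All 9 endothelial markers were negative with 2 called lower, Cldn5 (log2 fold change -0.59, SE 0.12, adjusted p = 0.00246) and Kdr (log2 fold change -0.35, SE 0.10, adjusted p = 0.0424) and a summed level of 535 to 567 CPM at CT12 against 596 to 685 CPM at CT24. Kdr missed the threshold without CT24 replicate 2 (adjusted p = 0.302), CT24 replicate 3 (0.0646), CT12 replicate 1 (0.155) and CT12 replicate 3 (0.136). Kdr (adjusted p = 0.131) missed it with the muscle and marrow scores in the model. Kdr (adjusted p = 0.0569) missed it with the brain score in the model. Cldn5 passed in all 6 fits. Of 15 T and NK lymphocyte markers 14 were negative and 1, Nkg7, was called, and of 11 macrophage markers 9 were negative and 1, Cx3cr1, was called. Over all genes tested, 5.88% were called and 47.5% were positive. Nkg7 (adjusted p = 0.0721) missed the threshold without CT24 replicate 1. Nkg7 (adjusted p = 0.0907) and Cx3cr1 (0.118) missed the threshold without CT24 replicate 2. Nkg7 (adjusted p = 0.160) missed the threshold without CT12 replicate 1. Nkg7 (adjusted p = 0.123) and Cx3cr1 (0.122) missed the threshold without CT12 replicate 3. Nkg7 (adjusted p = 0.0922) missed it with the muscle and marrow scores in the model. No marker of erythroid cells, neutrophils, B lymphocytes or skeletal muscle was called by edgeR's test, although 13 of 14 erythroid and 14 of 15 neutrophil markers were negative. At an unadjusted p below 0.05 there were 1, 6, 1 and 1 of them in that order, and DESeq2 called 3 neutrophil markers and none of the others. Without CT12 replicate 2, 6 neutrophil markers were called lower. Their part in the calls of inflammatory, osteoclast and matrix genes was not tested beyond the model with muscle and marrow scores, in which 949 genes were called and 753 of the 1327 remained.

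Of 20 immediate early genes, which respond to stimulation within minutes, Egr1 (0.49 ± 0.13, adjusted p = 0.0274) and Egr3 (0.43 ± 0.13, adjusted p = 0.0497) were called higher and Fosl2 (-0.39 ± 0.10, adjusted p = 0.0204) lower. Among 20 antioxidant genes, Gsta4, a glutathione transferase gene (0.44 ± 0.10, adjusted p = 0.00649), was called higher beside Por. The share called among all genes tested was 5.88%, beside these 3 of 20 and 2 of 20. Egr1 (adjusted p = 0.0525), Egr3 (0.163) and Fosl2 (0.0518) missed the threshold without CT24 replicate 1. Egr1 (adjusted p = 0.170), Egr3 (0.171), Fosl2 (0.105) and Gsta4 (0.0832) missed the threshold without CT24 replicate 2. Egr1 (adjusted p = 0.148), Egr3 (0.0685), Fosl2 (0.185) and Gsta4 (0.0882) missed the threshold without CT12 replicate 1. Egr1 (adjusted p = 0.0524) and Egr3 (0.116) missed the threshold without CT12 replicate 2. Egr3 (adjusted p = 0.163) missed the threshold without CT12 replicate 3. Egr3 (adjusted p = 0.0623) and Fosl2 (0.0656) missed it with the muscle and marrow scores in the model. Egr1 (adjusted p = 0.0848) and Egr3 (0.0921) missed it with the brain score in the model. Of 22 cell cycle genes, Cdkn1a alone was called, a share near the 5.88% called among all genes. Of the 22, 20 were negative and the median was -0.22. With the muscle and marrow scores in the model, the median of the 22 was 0.01, with 1 called higher and 1 lower.

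By amount of transcript, the largest higher calls included Glul, which encodes glutamine synthetase, with 1347, 1236 and 1411 CPM at CT12 and 854, 881 and 971 CPM at CT24 (log2 fold change 0.56, SE 0.14, adjusted p = 0.0191), and Lrp2, the endocytic receptor megalin, with 1172, 889 and 953 CPM at CT12 and 846, 655 and 780.0 CPM at CT24 (log2 fold change 0.40, SE 0.10, adjusted p = 0.0184). App, the amyloid precursor gene, gave 1591, 1337 and 1409.9 CPM at CT12 and 1184, 1179 and 1299 CPM at CT24 (log2 fold change 0.24, SE 0.07, adjusted p = 0.0306). Tns1, Aif1l, Fbxo2 and Dnase1 were of this kind, with log2 fold changes from 0.35 to 0.49. CT12 replicate 1 was the highest library in Lrp2, App, Tns1, Aif1l, Fbxo2 and Dnase1. Glul (adjusted p = 0.0769) and App (0.115) missed the threshold without CT24 replicate 1. Glul (adjusted p = 0.0984), Lrp2 (0.177), App (0.159), Tns1 (0.0793), Aif1l (0.0929), Fbxo2 (0.171) and Dnase1 (0.260) missed the threshold without CT24 replicate 2. Glul (adjusted p = 0.0894), Lrp2 (0.221), App (0.282), Tns1 (0.117), Aif1l (0.138), Fbxo2 (0.177) and Dnase1 (0.342) missed the threshold without CT12 replicate 1. Glul (adjusted p = 0.0815), App (0.0664) and Dnase1 (0.0638) missed the threshold without CT12 replicate 3. Lrp2 (adjusted p = 0.0748), App (0.0683), Fbxo2 (0.0576) and Dnase1 (0.163) missed it with the muscle and marrow scores in the model. Glul (adjusted p = 0.0848) missed it with the brain score in the model. The largest lower calls by amount were those of Hsp90b1, Calr, Lpl and Tnc above and of Tmsb4x, an actin-binding peptide gene, which overlapped between the times (log2 fold change -0.27, SE 0.07, adjusted p = 0.0231) and passed in 2 of the 6 fits without 1 library. Tmsb4x missed the threshold without CT24 replicate 1 (adjusted p = 0.0598), CT24 replicate 2 (0.190), CT12 replicate 1 (0.221) and CT12 replicate 3 (0.104). Tmsb4x (adjusted p = 0.0756) missed it with the muscle and marrow scores in the model.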

How the data were processed

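RNA from 36 cochlear samples was sequenced, with 3 libraries for each of 12 groups (sham or ADX at 6 times). The authors deposited 1 table of whole-number counts per gene. Reads were aligned with STAR 2.4.0i to mm10, per the submitters' processing notes. What counted the reads, on which annotation and with which strand setting, is not stated in those notes, so reads of overlapping or antisense genes cannot be told apart, and immunoglobulin segments are uncertain. For 30 of 36 libraries the column name gives a time 1 h earlier than the label (CT11 for CT12), and the label was used. Gene positions come from GENCODE M21 (GRCm38), in which 96.6% of identifiers were found.

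All 36 libraries entered 1 edgeR 4.0.16 quasi-likelihood fit (R 4.3.3, TMM scaling, 12 group means, 24 residual degrees of freedom). The filter on low counts left out 16461 genes, which held 0.0779% of counts. P-values were adjusted by Benjamini and Hochberg's method over 22556 genes. The 2 contrasts and their difference were tested in this fit, which was tested on simulated data. CPM values are counts scaled to a common library size, and errors are standard errors of the fit. Replicates of a group differed by more than counting noise (chi-square per degree of freedom 5.28 to 16.5). DESeq2 1.42.0, limma-voom (limma 3.58.1), other scaling, filters, sample sets, covariates and fits without 1 library were the alternatives. Genes were named by size of change, by p, by amount of transcript and as list members, and list members outside that rule appear where a list's called genes are given. Some list members are counted but not reported here by name. Members and lists were chosen with earlier results of these data known.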

Additional observations from a re-analysis of the deposited data

How the results depend on the processing

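Without a filter on low counts, 855 genes were called in sham (614 higher, 241 lower). With the 18 sham libraries alone there were 734 (493 and 241), with the 6 libraries alone 335 (240 and 95) and with the brain score, an alternative chosen after seeing the data, 859 (617 and 242). Fits without 1 library ranged from 298 to 1940 calls, from 213 to 1343 higher and from 79 to 597 lower. DESeq2, limma-voom, RLE scaling, a stricter filter and the muscle and marrow scores gave 1665, 1271, 1332, 1278 and 949. The share of higher calls was 69.9% as reported and 62.7% with the stricter filter. None of the 1327 genes changed sign in these fits, and 160 passed in all 16. In ADX, DESeq2 called 290 genes and the muscle and marrow scores left 85, against 153, while fits without 1 library ranged from 71 to 111. The test of the difference called 1 gene by DESeq2 and 1 with the muscle and marrow scores, and 0 to 1 without 1 library. Among uncalled genes, the log2 fold change turned sign with the muscle and marrow scores for Gjb2 (-0.00575), Timeless (0.0315) and Nono (0.0286), and that of Gjb2 ran from -0.0186 (without CT12 replicate 1) to 0.223 (without CT24 replicate 3) in fits without 1 library. The cause of these shifts was not tested.

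The replicate numbers were not taken to pair the samples. Same-numbered CT12 and CT24 libraries had correlations of deviations of 0.0339, 0.0999 and 0.0340, and differently numbered ones ran from -0.119 to 0.0763. With 3 libraries at each time, these values cannot decide whether the numbers mark a pairing. With the replicate block, 1280 genes were called in sham (879 higher and 401 lower), 146 in ADX and 0 for the difference.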
